A study of Mus musculus with 36 samples.

Results

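The 10 genes described here encode enzymes that clear ammonia and break down amino acids in the liver, and they were picked by name from the 49315 genes of the expression table: Cps1, Otc, Ass1, Asl, Arg1, Gls2, Hal, Sds, Glul and Oat. All 10 were present and passed the filter on low values. The livers came from male mice of 11 to 12 weeks whose LXRalpha (liver X receptor alpha), which is a nuclear receptor activated by oxidised cholesterol, carried tryptophan (W) or phenylalanine (F) at residue 441. The change was made with CRISPR in the germ line, so it is present in every cell type. Homozygous controls (W/W), heterozygotes (W/F) and homozygous mutants (F/F) were kept on normal chow, or on a high-fat, high-cholesterol diet (Teklad TD.96121) that promotes metabolic dysfunction-associated steatohepatitis (MASH). The MASH diet lasted 4 weeks, and for its last 2 weeks the mice were gavaged daily with vehicle or with 10 mg/kg of the synthetic LXR agonist T0901317. Each of the 9 groups had 4 mice. The chow mice were a separate cohort without gavage, so in every diet comparison diet, gavage and cohort cannot be told apart. The series text names the receptor gene Nr1h2, whereas the usual symbol for LXRalpha is Nr1h3.

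The urea cycle turns ammonia into urea for excretion. Cps1 joins ammonia and bicarbonate into carbamoyl phosphate in the mitochondrion and sets the rate of the cycle. Otc transfers that group to ornithine, Ass1 and Asl build and split argininosuccinate in the cytosol, and Arg1 releases urea and restores ornithine. Blood reaches the hepatocytes around the portal vein first, and the urea cycle runs there, next to Gls2, which frees ammonia from glutamine, Hal, which starts the breakdown of histidine, and Sds, which deaminates serine. Around the central vein, Glul binds ammonia that escaped the cycle into glutamine, and Oat turns ornithine toward glutamate. Cps1, Ass1, Hal, Sds and Gls2 are taken here as the 5 periportal genes and Glul and Oat as the 2 pericentral ones, as the choice of genes set out.

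In the GRCm38 annotation (GENCODE M21) all 10 are protein coding. Cps1 lies on chromosome 1 from 67123026 to 67231259 and Glul on the same chromosome from 153899944 to 153909723. Otc lies on chromosome X from 10252305 to 10321024, Ass1 on chromosome 2 from 31470207 to 31520672 and Oat on chromosome 7 from 132557478 to 132576398. Chromosome 5 holds Sds from 120476526 to 120483932 and Asl from 130011258 to 130029247. Chromosome 10 holds Arg1 from 24915221 to 24927484, Hal from 93488768 to 93519304 and Gls2 from 128194457 to 128210004. Values here are for whole genes, summed over all exons.

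The 250 bases upstream of the start site are shown for Glul and Oat, the pericentral pair whose levels moved together, and for Hal and Otc, a periportal and a urea cycle gene that were lower in both mutant genotypes on vehicle. They are from RefSeq (GRCm38.p6), and its entries matched 5 of the 10 genes, Glul, Oat, Hal, Otc and Ass1, with Cps1, Asl, Arg1, Gls2 and Sds the other 5. Glul is at chr1:153899679-153899928 and Hal at chr10:93488518-93488767, both on the plus strand, Otc at chrX:10252055-10252304 on the plus strand and Oat at chr7:132576399-132576648 on the minus strand. Each reads 5′ to 3′ on the strand of its gene, and capitals mark CCAAT or TATAAA on either strand.
Glul: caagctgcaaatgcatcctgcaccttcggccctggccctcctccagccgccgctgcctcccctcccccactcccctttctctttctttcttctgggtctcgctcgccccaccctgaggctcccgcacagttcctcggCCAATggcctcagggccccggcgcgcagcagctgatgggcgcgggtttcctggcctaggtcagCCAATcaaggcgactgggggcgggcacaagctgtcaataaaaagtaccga
Oat: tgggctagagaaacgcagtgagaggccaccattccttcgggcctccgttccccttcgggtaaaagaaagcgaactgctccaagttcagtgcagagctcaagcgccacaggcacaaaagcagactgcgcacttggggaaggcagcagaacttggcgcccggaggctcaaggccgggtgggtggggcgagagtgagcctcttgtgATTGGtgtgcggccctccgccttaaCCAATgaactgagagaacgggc
Hal: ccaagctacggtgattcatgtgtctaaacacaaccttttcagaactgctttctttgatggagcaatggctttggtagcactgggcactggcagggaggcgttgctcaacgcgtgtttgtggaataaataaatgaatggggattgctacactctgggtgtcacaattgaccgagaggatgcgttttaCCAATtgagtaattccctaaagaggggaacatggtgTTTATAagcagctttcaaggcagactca
Otc: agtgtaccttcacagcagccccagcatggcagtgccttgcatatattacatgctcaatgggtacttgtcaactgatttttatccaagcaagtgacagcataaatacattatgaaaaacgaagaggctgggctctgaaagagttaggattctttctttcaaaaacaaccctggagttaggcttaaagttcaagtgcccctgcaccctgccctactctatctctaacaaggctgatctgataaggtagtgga

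Glul held CCAAT from -113 to -109 and from -50 to -46, and Oat from -47 to -43 on the opposite strand and from -22 to -18, counted from the start site. Hal held CCAAT from -64 to -60 and TATAAA on the opposite strand from -28 to -23. Otc and Ass1 held neither. CCAAT, which was added after these sequences had been read, occurs in 33.8% of all 32851 mouse windows of this length and TATAAA in 12.4%. No window of the 5 held CTTTGAA (TCF/LEF), TGACGTCA or CGTCA (cyclic AMP response), TTGCGCAA (C/EBP), CAAAGTCCA (HNF4) or, by their full patterns, the glucocorticoid receptor element and the LXR direct repeat. GC content was 43.6% in Otc and 45.6% in Hal against 60% in Oat, 64.8% in Glul and 75.6% in Ass1, where the median window has 52.0%. A match is a description of letters and not a bound site.

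Expression is in TPM, a transcript abundance scaled for gene length and for the library total, so levels of different genes can be set side by side. Recovered depth was 18.1 to 35.8 M (mega) reads per library, and the lowest value of any of the 10 genes still rested on 1329 reads, so counting error was small beside the spread between mice. The 100 most abundant genes held 54.3% to 59.1% of the TPM in W/W, 46.3% to 48.04% in W/F and 41.6% to 44.5% in F/F livers on vehicle, and the median gene shifted with them. A second version of each comparison rescaled every library to a common median gene (rescaled TPM), and a result is given on both scales where the call differs. Markers of other cells differed too. The summed TPM of 8 macrophage markers was 180.5 to 323.2 in W/W livers on vehicle, against 2966 to 4015 in W/F and 3615 to 4708 in F/F livers on vehicle, and that of 8 stellate cell and fibroblast markers was 94.8 to 155 in W/W and 1061 to 1294 in F/F. Gpnmb, a marker of lipid-laden macrophages, was at 0.482 to 3.05 TPM in W/W and 461 to 601 TPM in F/F livers on vehicle, and Col1a1, a collagen of fibroblasts, was at 1.96 to 8.44 and 255 to 299 TPM. Clec4f, a marker of resident Kupffer cells, went the other way, with 68.0 to 77.6 TPM in W/W and 0.168 to 0.508 TPM in F/F. Summed over 8 hepatocyte markers, TPM was 74184 to 98568 in W/W and 55840 to 60241 in F/F livers on vehicle, and Alb (albumin) was at 39373 to 58303 and 18000 to 21731 TPM. All 6 cholangiocyte and all 6 neutrophil markers were called higher in F/F than in W/W livers on vehicle, where 69.3% of all genes were, whereas of 7 sinusoidal endothelium markers 2 were higher and 2 lower, and of 6 lymphocyte markers tested 2 were higher. The part of these markers in the results was not tested. In whole liver, fewer cells of a type and less RNA per cell cannot be told apart. W/W chow replicate 2 stood apart, with the highest value of its group in Cps1, Ass1, Asl, Arg1, Gls2, Hal and Sds and the lowest in Otc, Glul and Oat, and W/F T0901317 replicate 2 had the fewest TPM in its 100 most abundant genes of its group (51.5%). Calls of the 10 genes that rest on them are given without them as well, as are ranges, ratios, correlations and list counts, in the paragraphs that print them.

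Among the 10, Ass1 and Sds carry the largest doubt about assignment. Glul carries a smaller one, with 12.6% of its 50-base words also in Glns-ps1, AC134576.3 or Teddm2. Glns-ps1 reached at most 1.99 TPM and Teddm2 1.73 TPM. Of the exon bases, 6.29% in Glul overlap Mir8114 and Teddm2, and 2.79% in Gls2 overlap Spryd4. Of the 50-base words of Ass1, 38.6% also occur in Gm5424 (22.95 to 73.9 TPM), so part of its reads could have been counted there. Of the exon bases of Sds, 29.6% overlap Gm15690, an antisense gene, and Plbd2 on the opposite strand, and the use of strand is not given in the sources used here. Gm15690 had 28.2 ± 11.6 TPM in W/W vehicle, 64.3 ± 25.6 in W/W T0901317, 71.9 ± 29.4 in W/F vehicle and 25.9 ± 10.8 in F/F vehicle livers (SD, n = 4 each), and reads of Sds and Gm15690 cannot be told apart there.

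**Figure D1:**
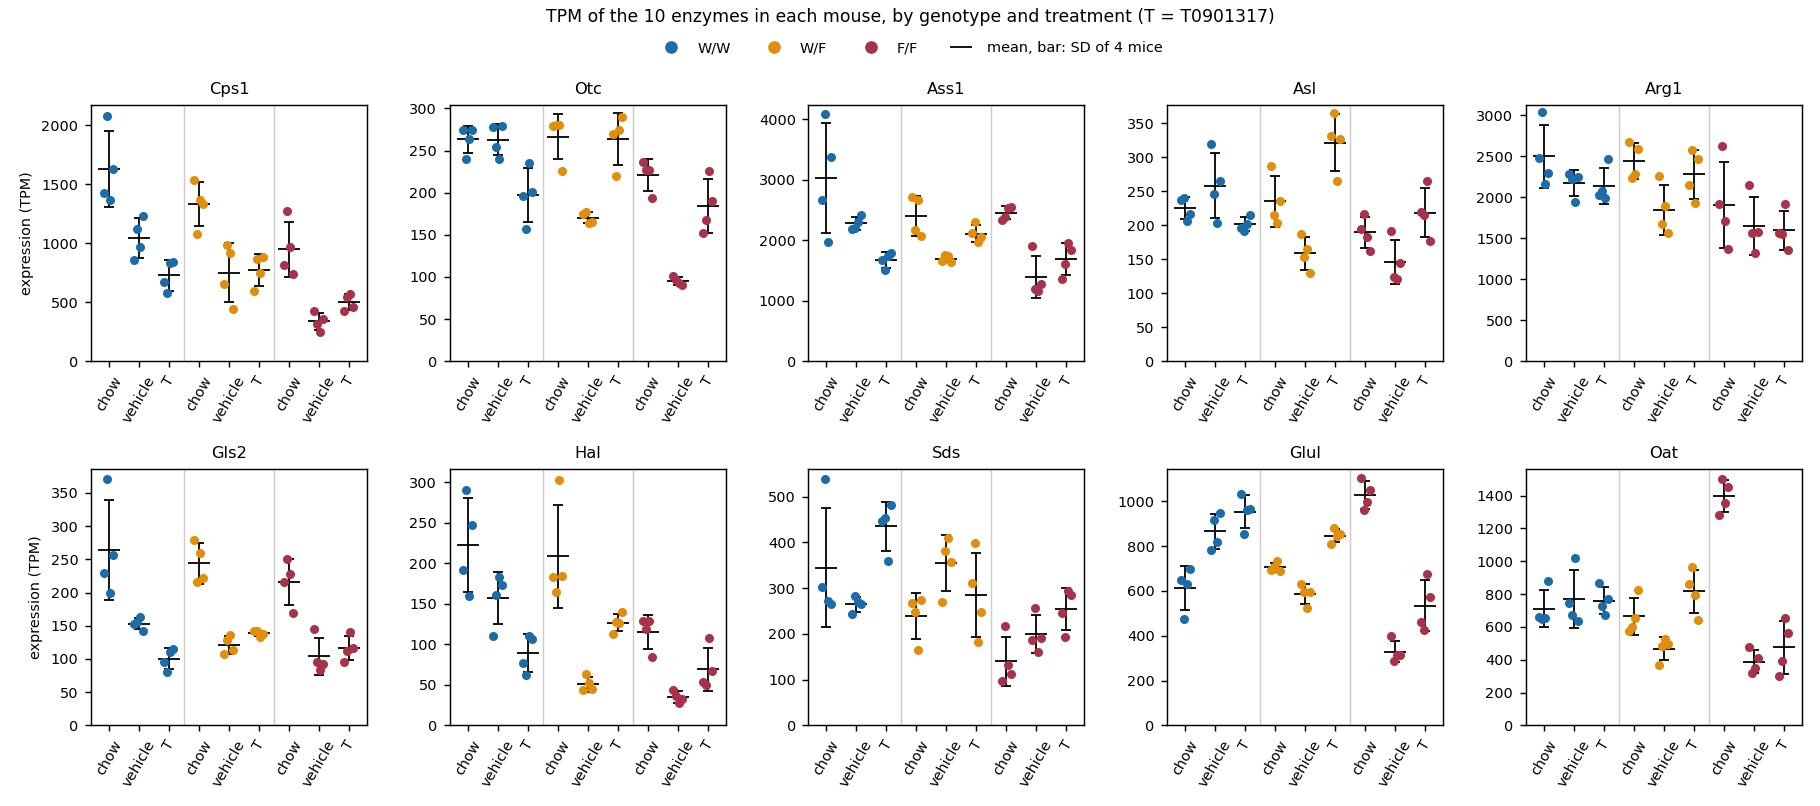
TPM of each enzyme gene (y axis, linear, from 0) in each of 36 mice, by genotype (colour) and treatment (x axis, T for T0901317), with the mean and SD of 4 mice. In 7 of the 10 panels the lowest mean is that of F/F vehicle livers, and in Glul and Oat the highest mean is that of F/F chow livers.

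Across the 9 groups the 10 genes ran through different ranges. Hal had the widest, 6.34-fold from W/W chow (222 TPM) to F/F vehicle (35.1 TPM), followed by Cps1 at 4.83-fold, from 1628 to 337 TPM between the same groups. Arg1 had the narrowest, 1.56-fold, from 2500 TPM in W/W chow to 1598 TPM in F/F T0901317. The mean was lowest in F/F vehicle livers for Cps1, Otc, Ass1, Asl, Hal, Glul and Oat, the exceptions being Arg1 (F/F T0901317), Gls2 (W/W T0901317) and Sds (F/F chow). Without the 2 libraries that stood apart the ranges were 5.95-fold for Hal, from W/F chow (209 TPM) to the same F/F vehicle mean, 4.38-fold for Cps1 and 1.53-fold for Arg1, from W/F chow, and the lowest groups were the same. Ass1, Arg1 and Cps1 were the most abundant in W/W chow livers. Summed over the 10 genes, TPM was 7970 to 8601 in W/W livers, 5548 to 6535 in W/F livers and 3888 to 6032 in F/F livers on vehicle, and the W/W range did not overlap either of the others.

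On the MASH diet with vehicle, 9 of the 10 genes were lower in F/F than in W/W livers, where 7.13% of all 16638 genes tested were called lower. A call is a Benjamini-Hochberg adjusted p under 0.05 in limma, fitted over all genes and 36 mice. After rescaling all 10 were called lower, against 22.7% of all genes. The median of the 10 log2 fold changes was -0.91, where that of all genes was 0.70. In the mitochondrial steps, Cps1 was at 856, 1126, 970.5 and 1235 TPM in W/W against 425.5, 316, 248 and 359 TPM in F/F. These groups did not overlap, and Cps1 fell by 1.64 on the log2 scale (SE 0.21, adjusted p = 3.05e-08). Otc was at 278, 254, 241 and 279 TPM in W/W against 101.5, 96.9, 93.02 and 90.2 TPM in F/F, a fall of 1.45 (SE 0.11, adjusted p = 7.22e-13). Its 4 F/F livers were the 4 lowest of all 36. The cytosolic steps moved less. Ass1 had log2 fold change -0.74 (SE 0.15, adjusted p = 6.47e-05), Asl -0.83 (SE 0.14, adjusted p = 6.24e-06) and Arg1 -0.42 (SE 0.16, adjusted p = 0.0178). The groups overlapped in Arg1, and its call was lost without F/F vehicle replicate 3 (-0.32, adjusted p = 0.0853). The ratio of Arg1 to Cps1 was 1.82 to 2.67 in W/W and 4.38 to 5.34 in F/F.

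Among the other periportal genes, Hal showed the largest difference of the 10. It was at 110, 161, 183 and 173 TPM in W/W against 44.1, 36.3, 27.3 and 32.5 TPM in F/F livers on vehicle, with log2 fold change -2.13 (SE 0.23, adjusted p = 1.30e-09). Gls2 had a log2 fold change of -0.59 (SE 0.16, adjusted p = 0.00151) with overlapping groups, F/F replicate 1 (145 TPM) reaching the lowest W/W liver (142 TPM). Sds was the gene not called as deposited (-0.43, adjusted p = 0.0971), and it was called after rescaling (-1.16, adjusted p = 0.000291). The pericentral genes were lower as well. Glul was at 783, 916, 818 and 946 TPM in W/W against 397, 289, 313 and 315 TPM in F/F, a fall of 1.40 on the log2 scale (SE 0.12, adjusted p = 5.66e-12). Oat, with 637 to 1022 TPM in W/W and 316 to 475 TPM in F/F, fell by 0.98 (SE 0.18, adjusted p = 1.97e-05). Set against Alb, 1 of the 8 hepatocyte markers, the ratio of Cps1 was 0.0166 to 0.0270 in W/W and 0.0114 to 0.0236 in F/F, and that of Glul 0.0140 to 0.0207 and 0.0144 to 0.0221, overlapping in both. The 8 markers did not move together, with 2 called higher and 3 lower, where 69.3% and 7.13% of all genes were. After rescaling these were 1 and 6, where 36.6% and 22.7% of all genes were. The ratio of Arg1 to Alb was 0.0334 to 0.0581 in W/W and 0.0609 to 0.12 in F/F, without overlap.

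Livers with 1 mutant copy also differed from controls on vehicle. Of the 10 genes 7 were lower in W/F than in W/W, where 6.83% of all genes were called lower, and 9 were lower after rescaling, where 20.5% were. Hal was at 43.3, 63.3, 52.5 and 44.7 TPM in W/F vehicle livers, below all 4 W/W livers (110 TPM or more), with log2 fold change -1.60 (SE 0.23, adjusted p = 4.86e-07). Otc was at 174, 177, 164 and 165 TPM, again below all W/W livers, and fell by 0.62 (SE 0.11, adjusted p = 9.68e-06). Asl (-0.70), Oat (-0.71), Glul (-0.56) and Ass1 (-0.43) were also called without overlap. Cps1 overlapped between the groups, with 652, 988, 920 and 443 TPM in W/F, and its call (-0.53, adjusted p = 0.0247) was lost without W/F replicate 1 (adjusted p = 0.0605), W/F replicate 4 (0.183), W/W replicate 2 (0.0578) or W/W replicate 4 (0.0795). Arg1 (-0.25), Gls2 (-0.34) and Sds (0.41) were not called as deposited, and Arg1 (-0.80, adjusted p = 0.000553) and Gls2 (-0.89, adjusted p = 0.000166) were called lower after rescaling. Sds changed sign after rescaling (-0.15, adjusted p = 0.666).

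F/F set directly against W/F on vehicle gave 4 of the 10 genes lower, where 2.30% of all genes were called lower. These were Cps1 (-1.11, adjusted p = 0.000373), Glul (-0.84, adjusted p = 8.17e-06), Sds (-0.83, adjusted p = 0.0115) and Otc (-0.83, adjusted p = 3.72e-06), each without overlap between the groups. Hal was 0.53 lower on the log2 scale and missed the threshold (adjusted p = 0.0971). Otc thus took separate ranges in the 3 genotypes, 241 to 279, 164 to 177 and 90.2 to 101.5 TPM.

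**Figure D2:**
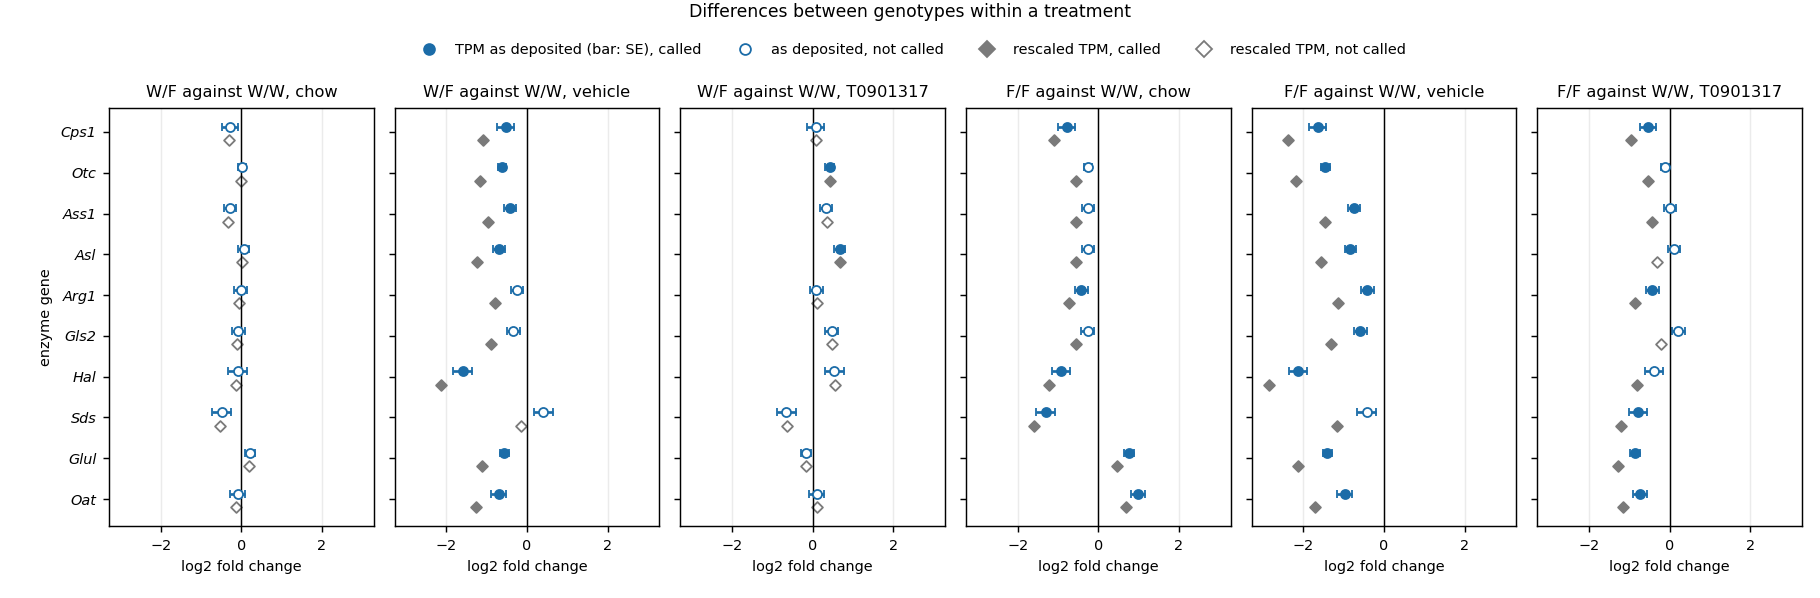
Log2 fold changes of the 10 enzyme genes between genotypes (x axis), 1 panel per comparison, as deposited (circles with SE) and rescaled (diamonds), filled where called. In F/F against W/W, Glul and Oat lie above 0 on chow and below 0 on vehicle and T0901317 on both scales.

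On chow the pericentral genes took the opposite direction. In F/F against W/W chow livers 2 of the 10 genes were higher, Glul and Oat, below the 43.0% of all genes called higher as deposited. The same 2 were higher after rescaling, near the 19.0% of all genes. Oat was at 659, 646, 656 and 877 TPM in W/W against 1280, 1502, 1356 and 1449 TPM in F/F chow livers, the 4 highest values of Oat among all 36 mice, with log2 fold change 0.99 (SE 0.18, adjusted p = 9.32e-05; rescaled 0.68, adjusted p = 0.0143). Glul was at 647, 474, 631 and 699 TPM in W/W against 1103, 962, 997.5 and 1048 TPM in F/F, a rise of 0.76 (SE 0.12, adjusted p = 6.62e-06; rescaled 0.45, adjusted p = 0.0106). Neither pair of groups overlapped.

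In the same comparison 4 genes were lower, Cps1, Arg1, Hal and Sds, where 3.65% of all genes were called lower, and 8 after rescaling, where 9.85% were. Sds was at 301, 538, 273 and 265.5 TPM in W/W against 97.01, 217, 133 and 112 TPM in F/F chow livers, with log2 fold change -1.30 (SE 0.23, adjusted p = 6.01e-05). Hal fell by 0.92 (SE 0.23, adjusted p = 0.00174) and Cps1 by 0.79 (SE 0.21, adjusted p = 0.00298), both without overlap. Arg1 (-0.42, adjusted p = 0.0298) overlapped, and its call was lost without F/F chow replicate 3 (adjusted p = 0.0802) or 4 (0.174) or W/W chow replicate 1 (0.0539) or 2 (0.119). Without W/W chow replicate 2, Cps1 (-0.66), Hal (-0.78), Sds (-1.06), Glul (0.64) and Oat (0.94) were still called. Otc, Ass1, Asl and Gls2, at -0.25, -0.25, -0.25 and -0.26, were not called as deposited and were after rescaling, at -0.56, -0.56, -0.55 and -0.56. Otc missed the threshold at adjusted p = 0.0546 and passed it without W/W chow replicate 2 (0.0413) or F/F chow replicate 1 (0.0480). The macrophage markers summed to 490.7 to 790.4 TPM in F/F and 121 to 172.6 TPM in W/W chow livers, the stellate cell and fibroblast markers to 281 to 555 and 74.5 to 117 TPM, and the 6 cholangiocyte markers to 724 to 985 and 50.2 to 61.6 TPM. The hepatocyte marker sums overlapped, at 80420 to 103717 and 77989 to 113277 TPM, and the part of the other cells in these calls was not tested.

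On chow no difference between heterozygous and control livers was detected in these genes. None of the 10 was called between W/F and W/W on chow, where 0.487% of all genes were called in either direction in limma, and 1 of the 10 had an unadjusted p under 0.05. Against W/F chow livers, F/F livers had 2 of the 10 genes higher, where 37.9% of all genes were called higher, and 4 lower, where 3.43% were. After rescaling 1 was higher, where 19.3% of all genes were, and 6 lower, where 9.69% were. Oat was higher by 1.08 (SE 0.18, adjusted p = 3.24e-05) on the log2 scale. Glul was higher by 0.54 (adjusted p = 0.000475), and its call was lost after rescaling (0.27, adjusted p = 0.131). Hal (-0.83, adjusted p = 0.00487) and Sds (-0.81, adjusted p = 0.00656) were lower on both scales. Cps1 (-0.51, adjusted p = 0.0519) and Asl (-0.31, adjusted p = 0.0892) were called lower after rescaling, at -0.77 (adjusted p = 0.00490) and -0.57 (adjusted p = 0.0124). Otc (-0.27, adjusted p = 0.0475) and Arg1 (-0.39, adjusted p = 0.0438) were at the threshold. Otc missed it without F/F chow replicate 2 (0.0534), 3 (0.0679) or 4 (0.174) or W/F chow replicate 1 (0.11), 2 (0.109) or 3 (0.108). Arg1 missed it without F/F chow replicate 1 (0.0575), 3 (0.111) or 4 (0.231) or W/F chow replicate 1 (0.111) or 4 (0.0906).

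**Figure D3:**
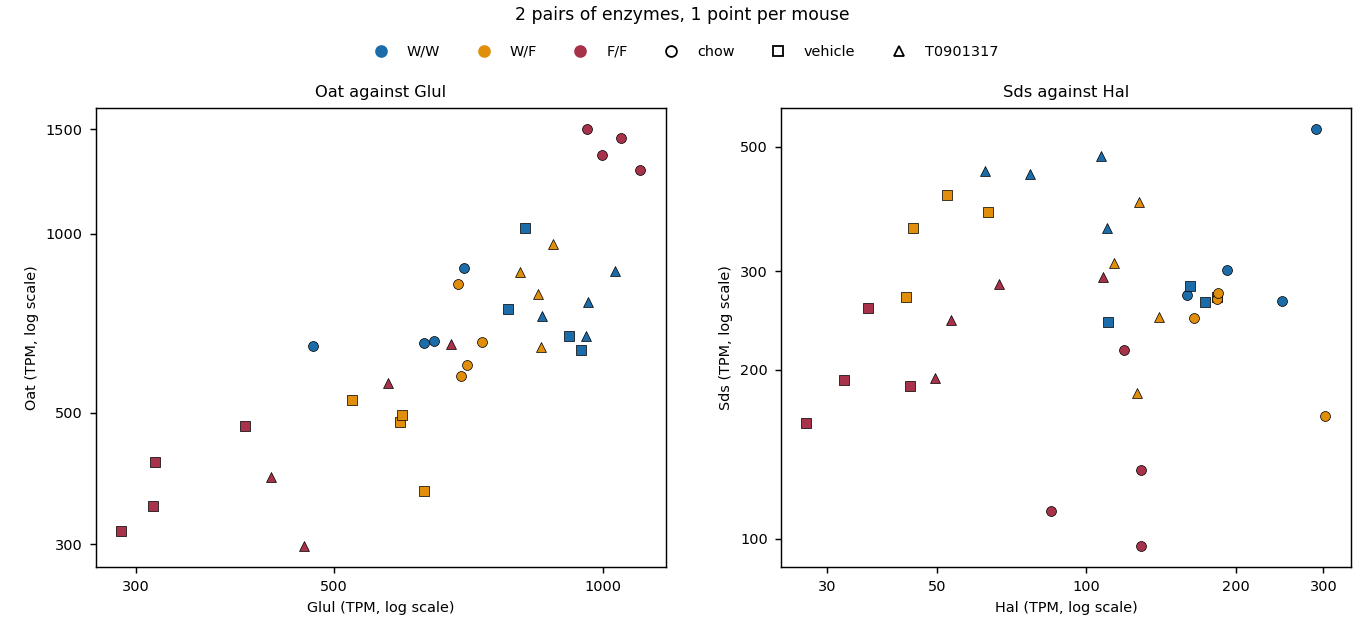
TPM of Oat against Glul (left) and of Sds against Hal (right) in 36 mice, on log axes, with genotype as colour and treatment as marker. Oat and Glul lie along 1 band, with the F/F chow livers at its upper end and the F/F vehicle livers at its lower end, whereas Sds and Hal show no common band.

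The pericentral pair ran in parallel over the groups, and the periportal set ran in parallel except for Sds. Over the 9 group means Glul and Oat correlated at r = 0.87, Cps1 and Ass1 at 0.93, and Hal and Otc, the latter placed in neither zone, at 0.92, as a description of 9 means that share their libraries. Sds stood apart, with r of 0.04 to Hal, 0.15 to Cps1, 0.05 to Glul and -0.32 to Oat. Without W/W chow replicate 2 and W/F T0901317 replicate 2 the first 3 values were 0.88, 0.93 and 0.93, and Sds was at -0.06 to Hal, 0.06 to Cps1, 0.05 to Glul and -0.36 to Oat. The zones were not separate, as r between the other periportal genes and the pericentral pair ran from 0.32 (Gls2 and Glul) to 0.68 (Ass1 and Oat). Without these 2 libraries those 2 values were 0.39 and 0.74. The ratio of Sds to Hal was 1.47 to 2.20 in W/W livers, 6.04 to 8.01 in W/F livers and 4.24 to 7.09 in F/F livers on vehicle, without overlap between W/W and either of the others. On chow it was 1.07 to 1.85 in W/W livers, 0.547 to 1.5 in W/F livers and 0.754 to 1.82 in F/F livers, and these ranges overlapped. On T0901317 it was 3.26 to 7.27 in W/W and 1.44 to 3.13 in W/F livers, the reverse of the order on vehicle, and 2.72 to 4.6 in F/F. Without the same 2 libraries it was 1.07 to 1.71 in W/W chow and 1.44 to 2.74 in W/F T0901317 livers.

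Under T0901317 fewer of the 10 genes were called between F/F and W/W livers than on vehicle. In F/F against W/W livers on the agonist 5 of the 10 were lower, where 6.96% of all genes were called lower, and 8 after rescaling, where 18.5% were. Glul was at 1033, 855, 958 and 964 TPM in W/W against 463, 425, 676 and 574 TPM in F/F, with log2 fold change -0.85 (SE 0.12, adjusted p = 3.49e-07). The groups did not overlap in Glul, nor in Oat, which was at 673 to 866 TPM in W/W and 298 to 652 TPM in F/F (-0.73, adjusted p = 0.0010). Sds fell by 0.78 (SE 0.23, adjusted p = 0.00472). Cps1 (-0.54, adjusted p = 0.0264) lost its call without F/F T0901317 replicate 1 (0.0803) or 4 (0.0603) or W/W T0901317 replicate 3 (0.0761) or 4 (0.0804). Arg1 (-0.43, adjusted p = 0.0189) lost it without F/F T0901317 replicate 4 (0.0718) or W/W T0901317 replicate 4 (0.0689). Ass1 was level as deposited (0.00, adjusted p = 0.986) and lower after rescaling (-0.43, adjusted p = 0.0424). Otc (-0.10), Asl (0.11), Gls2 (0.21) and Hal (-0.39) were not called as deposited, and Otc (-0.53, adjusted p = 0.00260) and Hal (-0.81, adjusted p = 0.00512) were called lower after rescaling.

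W/F livers on the agonist had 2 of the 10 genes higher than W/W livers, where 3.65% of all genes were called higher. Asl was at 331, 365, 265 and 327 TPM in W/F and at 196, 192, 202 and 216 TPM in W/W, a rise of 0.67 (SE 0.14, adjusted p = 0.00214) without overlap. Otc was 0.42 higher (adjusted p = 0.00975), with overlapping groups, and missed the threshold without W/W T0901317 replicate 2 (0.32, adjusted p = 0.0648). Set against W/F on the agonist, F/F livers had 7 of the 10 genes lower, where 4.08% of all genes were called lower. These were Hal (-0.93, adjusted p = 0.000947), Oat (-0.83, adjusted p = 0.000318), Glul (-0.69, adjusted p = 1.19e-05), Cps1 (-0.62, adjusted p = 0.0117), Asl (-0.56, adjusted p = 0.00142), Otc (-0.52, adjusted p = 0.000152) and Arg1 (-0.51, adjusted p = 0.00558). Ass1 (-0.33), Gls2 (-0.27) and Sds (-0.12) were not called as deposited. After rescaling 9 were lower, where 14.2% of all genes were, with Ass1 at -0.77 (adjusted p = 0.000612) and Gls2 at -0.70 (adjusted p = 0.00293). Sds, at 182 to 399 TPM in W/F and 359 to 482 TPM in W/W livers, was not called between W/F and W/W. Without W/F T0901317 replicate 2 the same 7 were called between F/F and W/F. Between W/F and W/W, Asl (0.60) and Otc (0.51) were still called without that library, and 1 of the 10 was then called lower.

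With the agonist Otc and Hal fell in control livers and rose in both kinds of mutant liver. All comparisons of T0901317 with vehicle are within the MASH diet, and those of 1 genotype share its vehicle mice with the diet comparisons below. The median of the 10 log2 fold changes was -0.38 in W/W livers, 0.42 in W/F livers and 0.47 in F/F livers, where the medians of all genes were 0.06, -0.49 and -0.24. In W/W livers 3 of the 10 fell, where 2.91% of all genes were called lower, and 1 rose, where 7.87% were called higher. Hal went from 110, 161, 183 and 173 TPM on vehicle to 77.0, 62.3, 110 and 107 TPM on T0901317, with log2 fold change -0.82 (SE 0.23, adjusted p = 0.0165). Gls2, at 142 to 163 and 79.9 to 115 TPM, fell by 0.62 (SE 0.16, adjusted p = 0.00947), and Otc, at 241 to 279 and 157 to 235 TPM, by 0.42 (SE 0.11, adjusted p = 0.00853). The groups did not overlap in any of the 3 genes. Each of the 3 calls was lost without W/W T0901317 replicate 2, where Hal was at -0.67 (adjusted p = 0.0912), Gls2 at -0.52 (0.0570) and Otc at -0.32 (0.0665). Hal also lost it without W/W vehicle replicate 3 (0.0629) or 4 (0.0508). In a limma fit of only the groups compared, Hal (adjusted p = 0.0678) and Otc (0.0726) were not called, whereas Ass1 was called lower (0.0124). Sds rose from 243.5, 283, 270 and 264 TPM to 447, 453, 359 and 482 TPM (log2 fold change 0.71, SE 0.23, adjusted p = 0.0487). These 4 values were higher than all 4 on vehicle. The call was lost after rescaling (0.65, adjusted p = 0.0973) and without any 1 library except W/W T0901317 replicate 3 (adjusted p from 0.0655 to 0.121). Ass1 (-0.45, adjusted p = 0.0570) was called lower after rescaling (-0.51, adjusted p = 0.0474). The macrophage marker sums of these groups overlapped, at 180.5 to 323.2 and 190 to 387 TPM.

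In W/F livers 5 of the 10 rose with T0901317, where 6.59% of all genes were called higher, and 9 after rescaling, where 19.5% were. Hal went from 43.3, 63.3, 52.5 and 44.7 TPM to 113, 128, 126 and 140 TPM, a log2 fold change of 1.31 (SE 0.23, adjusted p = 1.19e-05). Asl went from 187, 153, 165 and 129 TPM to 331, 365, 265 and 327 TPM (1.02, SE 0.14, adjusted p = 5.10e-07). Otc (0.62, adjusted p = 1.20e-05), Oat (0.80, adjusted p = 0.000369) and Glul (0.53, adjusted p = 0.000189) rose as well, and none of the 5 overlapped between the groups. Without W/F T0901317 replicate 2 the same 5 were called, with Otc at 0.71, Asl at 0.96, Hal at 1.31, Glul at 0.51 and Oat at 0.71. Sds was the gene that was not called on either scale (-0.36, rescaled 0.14). Cps1 was at 0.09 as deposited and 0.59 after rescaling (adjusted p = 0.0168). Ass1 (0.31), Arg1 (0.31) and Gls2 (0.20) were also called after rescaling only, of these 2 scales, at 0.82, 0.81 and 0.70. The macrophage markers summed to 2966 to 4015 TPM on vehicle and 152 to 1037 TPM on T0901317, the cholangiocyte markers to 1168 to 1597 and 103 to 278 TPM and the stellate cell and fibroblast markers to 632 to 859 and 168 to 297 TPM. The part of these markers in the rise was not tested.

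In F/F livers 5 of the 10 rose with T0901317, where 3.95% of all genes were called higher, and 6 after rescaling, where 7.83% were. Otc went from 101.5, 96.9, 93.02 and 90.2 TPM to 152, 167.5, 226 and 190 TPM, a log2 fold change of 0.93 (SE 0.11, adjusted p = 3.77e-07). Hal, at 27.3 to 44.1 and 49.6 to 108 TPM, rose by 0.92 (SE 0.23, adjusted p = 0.00341), and Glul, at 289 to 397 and 425 to 676 TPM, by 0.69 (SE 0.12, adjusted p = 8.13e-05). These 3 genes did not overlap between the groups. Asl rose by 0.60 (adjusted p = 0.00274) with overlapping groups. Cps1 rose by 0.59 (adjusted p = 0.0302), and this call was lost without F/F T0901317 replicate 2 (0.0639) or 3 (0.102) or F/F vehicle replicate 2 (0.0661) or 3 (0.118). Ass1 was called after rescaling (0.54, adjusted p = 0.0290). In contrast to W/F, Oat was not called in F/F livers (0.24, adjusted p = 0.309), with 316 to 475 TPM on vehicle and 298 to 652 TPM on T0901317. Macrophage marker sums were 3615 to 4708 and 1406 to 2218 TPM, and their part was not tested.

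The difference between these responses was tested as an interaction. The W/F response to T0901317 exceeded the W/W response in 7 of the 10 genes, where 5.27% of all genes were called in that direction, and was below it in 1, where 53.2% were. After rescaling it exceeded it in 9, where 16.2% of all genes did, with Cps1 (0.61 as deposited, 1.18 rescaled, adjusted p = 0.00152) and Arg1 (0.33 and 0.90, adjusted p = 0.00615) the added ones. Hal showed the largest such difference, 2.13 on the log2 scale (SE 0.32, adjusted p = 2.77e-06), followed by Asl at 1.36 (adjusted p = 2.40e-06), Otc at 1.04 (adjusted p = 1.73e-06), Gls2 at 0.81, Oat at 0.80 and Ass1 at 0.76. The call of Glul (0.39, adjusted p = 0.0398) was lost without any of 9 single libraries, namely W/F T0901317 replicates 2 (0.0624), 3 (0.0536) and 4 (0.0551), W/F vehicle replicates 2 (0.0505) and 3 (0.0894), W/W T0901317 replicates 2 (0.0869) and 3 (0.0519), and W/W vehicle replicates 2 (0.0705) and 4 (0.0803). Sds was the gene in the other direction (-1.07, adjusted p = 0.00694), and its call was lost after rescaling (-0.50, adjusted p = 0.279). The F/F response also exceeded the W/W response in 7 of the 10, where 3.29% of all genes were called in that direction: Hal at 1.74 (adjusted p = 0.000261), Otc at 1.35 (adjusted p = 2.79e-07), Cps1 at 1.11 (adjusted p = 0.00604), Asl at 0.94, Gls2 at 0.80, Ass1 at 0.75 and Glul at 0.55. Arg1 (-0.01), Sds (-0.35) and Oat (0.24) were not called there. Without W/F T0901317 replicate 2 the W/F minus W/W difference was 2.13 in Hal, 1.3 in Asl and 1.13 in Otc. Both differences share the W/W mice.

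**Figure D4:**
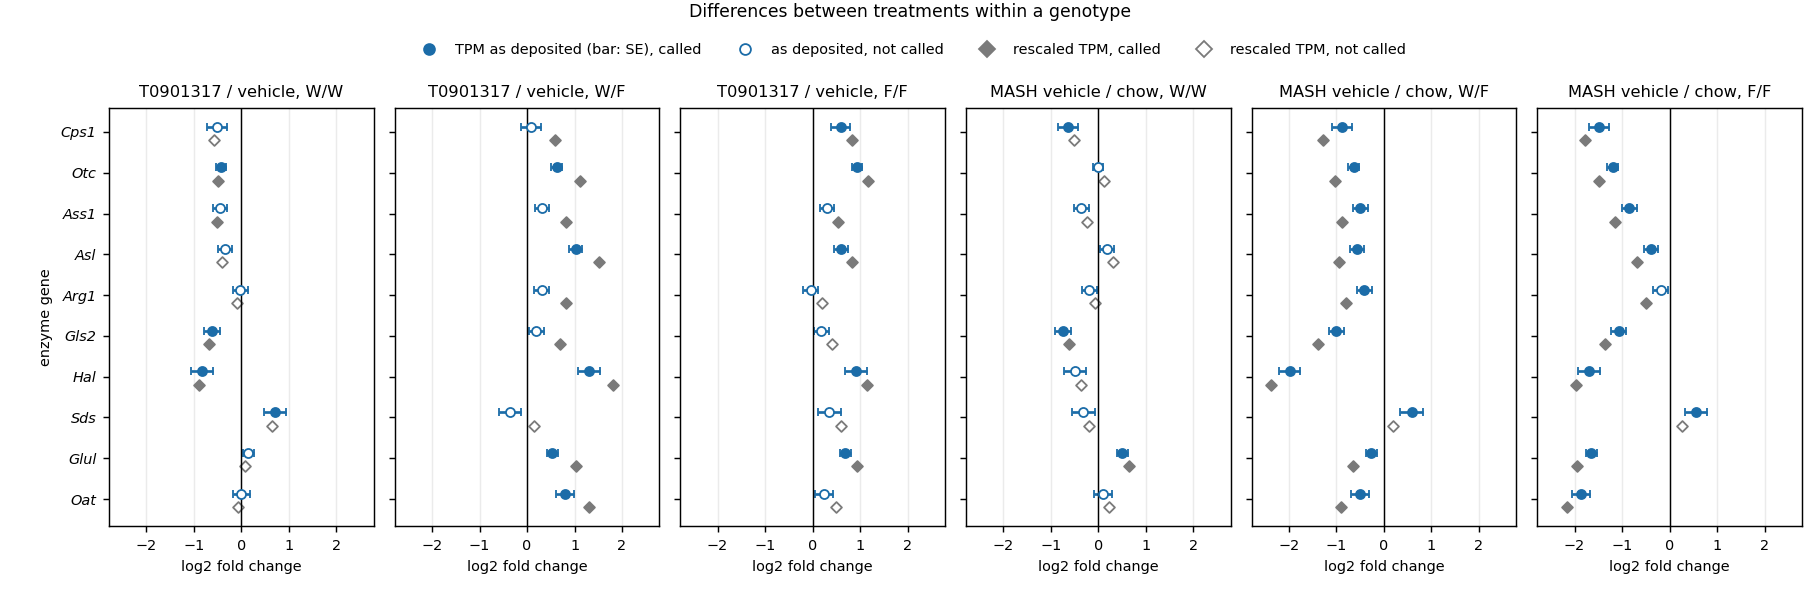
Log2 fold changes of the 10 enzyme genes (x axis) for T0901317 against vehicle and for the MASH diet with vehicle against chow, 1 panel per genotype, as deposited (circles with SE) and rescaled (diamonds), filled where called. Otc and Hal lie below 0 with T0901317 in W/W and above 0 in W/F and F/F livers, and Glul lies above 0 with the diet in W/W and below 0 in the other genotypes.

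The MASH diet with vehicle gavage was compared with chow without gavage. Most of the 10 genes were uncalled in control livers, and most were lower in mutants. The median of the 10 was -0.25 in W/W livers, -0.54 in W/F livers and -1.13 in F/F livers, where the medians of all genes were -0.05, 0.39 and 0.32. In W/W livers Glul rose, where 2.59% of all genes were called higher, from 647, 474, 631 and 699 TPM on chow to 783, 916, 818 and 946 TPM (0.51, SE 0.12, adjusted p = 0.00365). Gls2 and Cps1 fell, where 10.3% of all genes were called lower. Gls2 went from 199 to 371 TPM on chow to 142 to 163 TPM (-0.74, SE 0.16, adjusted p = 0.00235), also without overlap. Cps1 was at -0.63 (adjusted p = 0.0432), and missed the threshold after rescaling (-0.50, adjusted p = 0.0959) and without W/W chow replicate 2 (0.174) or 4 (0.0786) or W/W vehicle replicate 1 (0.16), 2 (0.0519) or 3 (0.0968). Without W/W chow replicate 2, Glul (0.39, adjusted p = 0.0319) and Gls2 (-0.57, adjusted p = 0.0213) were still called. In a fit of the 8 W/W mice alone none of the 10 was called.

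In W/F livers 9 of the 10 were lower on the diet, where 8.53% of all genes were called lower, and 9 after rescaling, where 21.5% were. Hal went from 183, 165, 303 and 184 TPM to 43.3, 63.3, 52.5 and 44.7 TPM, a fall of 1.99 on the log2 scale (SE 0.23, adjusted p = 1.15e-08). Gls2 fell by 1.00 (adjusted p = 3.38e-06), Cps1 by 0.88 (adjusted p = 0.000544) and Otc by 0.64 (adjusted p = 8.22e-06). Asl (-0.57), Ass1 (-0.49), Oat (-0.50), Arg1 (-0.41) and Glul (-0.27) were called with smaller differences. The call of Glul was lost without any 1 library except W/F vehicle replicate 1 (adjusted p from 0.0581 to 0.141). Arg1 lost its call without W/F chow replicate 1 (0.0663) or 4 (0.0546) or W/F vehicle replicate 2 (0.0646) or 4 (0.0851), and Oat without W/F chow replicate 4 (0.0821) or W/F vehicle replicate 1 (0.0849). Sds alone was called higher (0.58, adjusted p = 0.0330), where 52.4% of all genes were. It was at 0.19 after rescaling (adjusted p = 0.556), and missed the threshold without W/F chow replicate 3 (0.147) or W/F vehicle replicate 2 (0.0734), 3 (0.0919) or 4 (0.0565). From chow to vehicle the W/F macrophage marker sums went from 85.7 to 161 TPM to 2966 to 4015 TPM, the cholangiocyte sums from 57.5 to 175 to 1168 to 1597 TPM, and the stellate cell and fibroblast sums from 99.4 to 127 to 632 to 859 TPM. Hepatocyte marker sums overlapped, at 70542 to 102269 and 75486 to 84341 TPM. The part of these markers in the falls was not tested.

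In F/F livers 8 of the 10 were lower on the diet, where 9.27% of all genes were called lower, and 9 after rescaling, where 19.1% were. The pericentral pair moved furthest together with Hal. Oat went from 1280, 1502, 1356 and 1449 TPM on chow to 475, 316, 348 and 413 TPM, a fall of 1.86 (SE 0.18, adjusted p = 1.90e-09), and Glul from 1103, 962, 997.5 and 1048 TPM to 397, 289, 313 and 315 TPM, a fall of 1.65 (SE 0.12, adjusted p = 3.01e-12). Both genes went from the highest group mean of the 9 to the lowest. Hal fell by 1.69 (adjusted p = 3.78e-07), Cps1 by 1.49 (adjusted p = 6.53e-07), Otc by 1.20 (adjusted p = 4.05e-10), Gls2 by 1.07 (adjusted p = 1.81e-06) and Ass1 by 0.85 (adjusted p = 2.55e-05), each without overlap. Asl (-0.40, adjusted p = 0.0208) overlapped and was not called without F/F chow replicate 2 (0.0792) or F/F vehicle replicate 2 (0.0762) or 3 (0.0851). Arg1 was not called as deposited (-0.19) and was after rescaling (-0.49, adjusted p = 0.0309). Sds was called higher (0.56, adjusted p = 0.0439), where 46.5% of all genes were. It was at 0.26 after rescaling (adjusted p = 0.432), and was not called without F/F chow replicate 1 (0.171), 3 (0.0695) or 4 (0.114) or F/F vehicle replicate 1 (0.0589), 2 (0.154) or 4 (0.0650). The hepatocyte marker sums of F/F livers were 80420 to 103717 TPM on chow and 55840 to 60241 TPM on vehicle, without overlap. The macrophage sums were 490.7 to 790.4 and 3615 to 4708 TPM, the cholangiocyte sums 724 to 985 and 2922 to 3568 TPM, and the stellate cell and fibroblast sums 281 to 555 and 1061 to 1294 TPM. The part of these markers in the falls was not tested.

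Tested as an interaction, the diet response of F/F differed from that of W/W most in the pericentral pair. The difference was -2.16 in Glul (SE 0.16, adjusted p = 1.49e-10) and -1.96 in Oat (SE 0.26, adjusted p = 1.50e-06), or -2.04 and -1.92 without W/W chow replicate 2, and without it Otc, Hal, Cps1 and Asl were still called too. With Otc (-1.20, adjusted p = 1.01e-06), Hal (-1.20, adjusted p = 0.00356), Cps1 (-0.86, adjusted p = 0.0191) and Asl (-0.58, adjusted p = 0.0218), 6 of the 10 were called lower, where 4.54% of all genes were. After rescaling 8 were, where 11.1% of all genes were, with Ass1 (-0.49 as deposited, -0.92 rescaled, adjusted p = 0.00535) and Gls2 (-0.33 and -0.75, adjusted p = 0.0329) the added ones. Ass1 was also called as deposited without W/W chow replicate 2 (-0.65, adjusted p = 0.0104) or 4 (0.0432) or F/F vehicle replicate 1 (0.00986). Cps1 was not called without F/F chow replicate 2 (0.0577) or F/F vehicle replicate 3 (0.0522), and Asl was not without F/F chow replicate 2 (0.0538), F/F vehicle replicate 2 (0.0516) or 3 (0.0544) or W/W vehicle replicate 1 (0.0667). Sds was called higher (0.87, adjusted p = 0.0325), where 41.5% of all genes were, at 0.45 after rescaling (adjusted p = 0.398), and was not called without F/F chow replicate 1 (0.0834) or 4 (0.0615), F/F vehicle replicate 2 (0.0788), W/W chow replicate 2 (0.101) or W/W vehicle replicate 1 (0.0592).

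Between W/F and W/W, 5 of the 10 diet responses were called lower, where 5.13% of all genes were, and 9 after rescaling, where 15.1% were. These were Hal (-1.5, adjusted p = 0.000310), Glul (-0.78, adjusted p = 0.000231), Asl (-0.75, adjusted p = 0.00283), Otc (-0.64, adjusted p = 0.000947) and Oat (-0.61, adjusted p = 0.0488). Oat was not called without any of 9 single libraries: W/F chow replicate 3 (0.0635) or 4 (0.114), W/F vehicle replicate 1 (0.116) or 2 (0.0578), W/W chow replicate 1 (0.0774), 2 (0.0833) or 3 (0.0797), or W/W vehicle replicate 1 (0.0646) or 3 (0.133). Cps1 (-0.25 as deposited), Ass1 (-0.14), Arg1 (-0.22) and Gls2 (-0.26) were called after rescaling, at -0.77, -0.65, -0.74 and -0.77. Sds was again the gene called higher (0.89, adjusted p = 0.0234), where 49.5% of all genes were. It was at 0.38 after rescaling (adjusted p = 0.441) and was not called without W/F chow replicate 3 (0.0662) or W/W chow replicate 2 (0.0790).

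**Figure D5:**
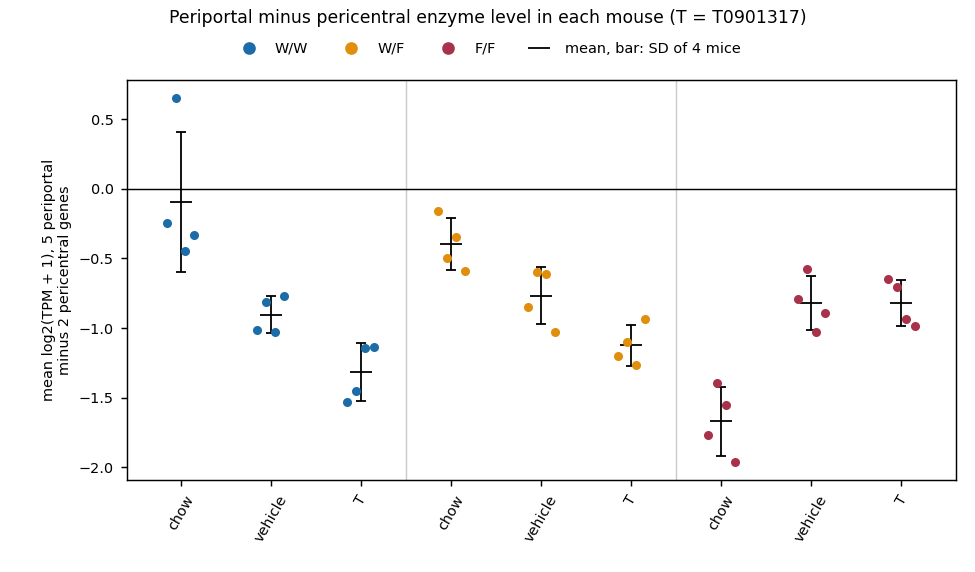
Periportal minus pericentral difference in each of 36 mice (y axis, mean log2(TPM + 1) of Cps1, Ass1, Hal, Sds and Gls2 minus that of Glul and Oat), by genotype and treatment, with the group mean and SD. The 4 F/F chow livers lie between -1.96 and -1.39, below all W/W and W/F chow livers.

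The balance of the zones was given per mouse as the mean log2(TPM + 1) of the 5 periportal genes minus that of the 2 pericentral ones, with no test, since these genes were chosen by name. On chow it was -0.25, 0.65, -0.44 and -0.33 in W/W livers, -0.16, -0.50, -0.35 and -0.59 in W/F livers and -1.76, -1.39, -1.55 and -1.96 in F/F livers. W/W chow replicate 2 was the 1 liver of 36 above 0, and the F/F minus W/W difference was -1.58 with it and -1.33 without it. On vehicle the 3 genotypes overlapped, with -1.03 to -0.77 in W/W livers, -1.03 to -0.60 in W/F livers and -1.03 to -0.57 in F/F livers. On T0901317 the values were -1.53 to -1.14 in W/W livers, -1.27 to -0.93 in W/F livers and -0.99 to -0.65 in F/F livers, and F/F did not overlap W/W. The diet thus went with lower values in W/W (mean -0.09 on chow, -0.91 on vehicle) and W/F (-0.40 and -0.77) and with higher values in F/F (-1.67 and -0.82). In single genes, the ratio of Cps1 to Glul had means of 2.78, 1.20 and 0.767 in W/W livers, 1.89, 1.30 and 0.909 in W/F livers and 0.935, 1.02 and 0.963 in F/F livers on chow, vehicle and T0901317. Without W/W chow replicate 2 and W/F T0901317 replicate 2 the means of those groups were 2.24 and 0.885.

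Other genes of nitrogen metabolism were read from a list of 20, of which 17 were tested (Slc25a2, Slc38a5 and Rhcg were not). In F/F against W/W livers on vehicle 7 of the 17 were higher, where 69.3% of all genes were called higher, and 7 lower, where 7.13% were called lower (6 and 9 after rescaling, where 36.6% and 22.7% of all genes were). Car5a, the mitochondrial carbonic anhydrase that supplies bicarbonate to Cps1, was at 39.7 ± 14.7 TPM in F/F and 151 ± 13.6 TPM in W/W (SD, n = 4 each; log2 fold change -1.95, adjusted p = 2.10e-10). Prodh, which starts the breakdown of proline, was at -1.62 and the glutamine transporter Slc38a3 at -1.01. Among those higher were Asns, asparagine synthetase (2.83), and Aldh18a1, which makes the precursor of proline and ornithine (2.24). In W/F livers T0901317 raised 6 and lowered 7 of the 17, where 6.59% of all genes were called higher and 59.3% lower, with Car5a at 1.67. After rescaling these were 8 and 4, where 19.5% and 31.8% of all genes were, and without W/F T0901317 replicate 2 they were again 6 and 7. On chow 11 of the 17 were higher in F/F than in W/W, where 43.0% of all genes were (7 after rescaling, where 19.0% were, and 9 without W/W chow replicate 2), among them the ammonium transporter Rhbg (2.18, 20.1 ± 2.88 against 3.72 ± 1.08 TPM) and the glutamate transporter Slc1a2 (1.06), both pericentral genes, and 3 were lower, where 3.65% of all genes were.

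Amino acid breakdown outside the 10 genes was read from 34 genes, and in F/F against W/W livers on vehicle 26 were lower, where 7.13% of all genes were, and 3 higher, where 69.3% were (30 and 1 after rescaling, where 22.7% and 36.6% were), with a median of -0.78. Hpd, of tyrosine breakdown, was at 439 ± 195 and 2805 ± 168 TPM (-2.76, adjusted p = 7.56e-15). Haao, of the kynurenine route of tryptophan, was at -2.30, Bhmt, which methylates homocysteine, at -1.93, and the serine dehydratase-like gene Sdsl at 1.25. T0901317 raised 24 and lowered 4 of the 34 in W/F, where 6.59% of all genes were called higher and 59.3% lower. After rescaling it raised 28 and lowered 1, where 19.5% and 31.8% of all genes were called, and without W/F T0901317 replicate 2 it raised 23 and lowered 5. Of 11 other periportal hepatocyte genes 4 were higher and 5 lower in F/F on vehicle, where 69.3% and 7.13% of all genes were (2 and 6 after rescaling, where 36.6% and 22.7% were), from Cdh1 (2.96), a cell adhesion gene that cholangiocytes also express, to Cyp2f2 (-3.83). Of 12 other pericentral genes 8 were lower and 2 higher on vehicle, against the same 7.13% and 69.3% of all genes (9 and 1 after rescaling, against 22.7% and 36.6%), led by Rgn (-4.25) and Cyp2e1 (-2.73). On chow 6 of these 12 were higher, near the 43.0% of all genes. After rescaling 5 were, where 19.0% of all genes were, and 5 without W/W chow replicate 2. Lect2 was at 1.11 beside Rhbg and Slc1a2. The lower genes numbered 4, where 3.65% of all genes were called lower (4 after rescaling, where 9.85% were, and 4 without W/W chow replicate 2). Cyp7a1, the rate-limiting enzyme of bile acid synthesis, was at -2.36. While Glul and Oat rose in F/F chow livers, other pericentral genes were called in both directions, those higher near the share of all genes as deposited.

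Of 8 targets of Wnt and beta-catenin signalling, the pathway known to maintain Glul around the central vein, 5 were higher and 0 lower in F/F than in W/W livers on chow, where 43.0% of all genes were called higher (3 higher after rescaling, where 19.0% were, and 4 higher without W/W chow replicate 2). Axin2 (0.81, adjusted p = 0.00221) was at 6.16 ± 1.83 and 2.99 ± 0.527 TPM and Znrf3 (0.61) at 5.43 ± 1.41 and 3.14 ± 0.193 TPM. On vehicle, where Glul and Oat were lower, 5 of the 8 were higher and 1 lower as deposited, where 69.3% and 7.13% of all genes were, and 0 higher and 3 lower after rescaling, where 36.6% and 22.7% were. Of 14 regulators of amino acid enzymes 8 were higher and 3 lower in F/F on vehicle, where 69.3% and 7.13% of all genes were (3 and 8 after rescaling, where 36.6% and 22.7% were), with the stress factor Ddit3 at 2.01, the hormone Fgf21 at 2.32 and the glucagon receptor Gcgr at -0.21 (rescaled -0.94).

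The genes whose 9 group means followed each enzyme most closely, among genes that reached 5 TPM in 4 samples or more, are given for each. Ugt2a3 followed Otc at r = 0.994, Nit2 followed Hal at 0.992, Nat8f2 followed Ass1 at 0.987 and Cfhr3 followed Cps1 at 0.981. Gys2 followed Asl at 0.978, Aox3 followed Gls2 at 0.972 and Obox4-ps3 followed Arg1 at 0.951. The pericentral genes and Sds had weaker nearest neighbours, Gm10925 for Glul (0.945), mt-Tt for Oat (0.939) and Acox2 for Sds (0.906). These are correlations of 9 means, chosen as the highest among all such genes, and carry no test. Without the 2 libraries that stood apart the same 10 pairs had r of 0.878 to 0.994.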

How the data were processed

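Liver polyA RNA of 36 male mice was sequenced, per the labels. The submitters' processing notes name Trimmomatic 0.36, STAR 2.5.2b, featureCounts, Subread 1.5.2 and the builds GRCm38 and mm10. How these were combined is not given in the sources used here. The authors deposited 1 table of TPM values for 49315 genes, and 48970 of its gene IDs matched the GENCODE M21 annotation. Depth was recovered from the steps between low TPM values, of which 93.7% to 95.7% lay within 0.1 of a whole read.

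Groups came from the labels, with 4 mice each. limma 3.58.1 (R 4.3.3, eBayes with trend) was fitted to log2(TPM + 1) of all 36 samples over the 16638 genes that reached 1 TPM in 4 samples or more, with 1 mean per group. Two-sided p-values were adjusted over these genes by Benjamini-Hochberg at 0.05. Fold changes on the log2(TPM + 1) scale understate changes of low genes. Rescaled TPM divides a library by its median ratio to the geometric mean over 10269 genes above 1 TPM in all samples. The test was tested on simulated data with few genes changed and no shift of the median gene, unlike many comparisons here. It therefore does not speak to such shifts. Each p-value sets a difference of group means against the spread between mice within groups, pooled over the 9 groups and moderated across genes.

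The 10 genes and the lists (urea cycle and ammonia partners, amino acid catabolism, other periportal and pericentral genes, Wnt and beta-catenin targets, regulators, and cell type markers) were chosen with earlier results of these data known. Of each list, up to 3 called genes in each direction with the largest change, no overlap and at least 5 TPM in the higher group could be named, and for each enzyme the 3 genes with the highest r over the group means. 1 gene that this rule names is not reported here.

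Alternatives were a pseudocount of 0.1, no filter, a filter at 5 TPM, rescaled TPM, only the groups compared, array quality weights, the replicate number as a block, each library left out, and each zonal gene left out. List counts, ranges, ratios and correlations without the 2 libraries that stood apart were added after seeing the data.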

Additional observations from a re-analysis of the deposited data

Results flagged for a closer look

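In 5 of 99 groups of 4 mice examined, 1 liver stood far from the other 3 by Dixon's criterion, and chance gives about 1 in 20. W/F chow replicate 4 had 225.8 TPM of Otc where the others had 279.4 to 280.8. F/F vehicle replicate 1 had 1910 TPM of Ass1 against 1169 to 1281, and W/F chow replicate 3 had 303 TPM of Hal against 165 to 184. W/W chow replicate 2 had 538 TPM of Sds against 265.5 to 301, and W/W chow replicate 4 had 877 TPM of Oat against 646 to 659.

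In 28 of 40 tests of a difference between responses, the response of W/F or F/F differed from that of W/W, and all these differences share the W/W mice. Of all genes, 58.5% were called in the W/F minus W/W and 30.4% in the F/F minus W/W response to T0901317. For the diet response these shares were 54.6% and 46.0%. For T0901317 the W/F minus W/W differences were 1.04 in Otc, 0.76 in Ass1, 1.36 in Asl, 0.81 in Gls2, 2.13 in Hal, -1.07 in Sds, 0.39 in Glul and 0.80 in Oat on the log2 scale. The F/F minus W/W differences were 1.11 in Cps1, 1.35 in Otc, 0.75 in Ass1, 0.94 in Asl, 0.80 in Gls2, 1.74 in Hal and 0.55 in Glul. For the diet the W/F minus W/W differences were -0.64 in Otc, -0.75 in Asl, -1.50 in Hal, 0.89 in Sds, -0.78 in Glul and -0.61 in Oat. The F/F minus W/W differences were -0.86 in Cps1, -1.20 in Otc, -0.58 in Asl, -1.20 in Hal, 0.87 in Sds, -2.16 in Glul and -1.96 in Oat. In the diet differences, diet, gavage and cohort cannot be told apart.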

How the results depend on the processing

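Rescaling raised the number of the 10 genes called from 5 to 9 for T0901317 in W/F, from 6 to 10 in F/F against W/W on chow and from 5 to 8 on T0901317. The share of all genes called fell in these comparisons, from 65.9% to 51.3%, from 46.7% to 28.8% and from 63.2% to 47.9%, in that order. A fit of only the groups compared took the W/W diet count from 3 to 0, and array weights took W/F against W/W on T0901317 from 2 to 4. Leaving out 1 library gave 0 to 4 calls for T0901317 in W/W (0 without T0901317 replicate 2, 2 without vehicle replicate 3 or 4), 1 to 3 in W/F against W/W on T0901317 (1 without W/W replicate 2) and 3 to 6 in F/F against W/W on T0901317 (3 without replicate 4 of either group). Among values called on at least 1 of the 2 scales, 3 changed sign, each uncalled as deposited. Values called on neither scale were not counted here. Sign changes on rescaling among these included Sds in W/F against W/W on vehicle and with T0901317 in W/F. They also included Otc with the diet in W/W (-0.0025 to 0.12) and in W/F against W/W on chow (0.014 to -0.022). Cps1 with T0901317 in W/F (0.09) was at -0.015 with array weights and -0.14 to 0.25 over left-out libraries. Ass1 in F/F against W/W on T0901317 (0.00) was at -0.43 rescaled, -0.044 with array weights and -0.070 to 0.10 over left-out libraries. The W/F minus W/W diet response of Ass1 ranged from -0.30 to 0.051. The cause was not tested.

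Correlations of same-numbered deviations ran from -0.17 to 0.30, and 0 of 36 group pairs had all 4 over 0.1. Between W/F T0901317 and W/W T0901317 they were 0.052 to 0.297, with 3 over 0.1. No pairing across all groups was seen, but with 4 mice a group this cannot exclude pairing by replicate number in some groups. With that number as a replicate block, the Oat diet response of W/F (-0.61) missed the threshold (adjusted p = 0.0502), which took that count from 6 to 5, and W/F against W/W on T0901317 went from 2 to 3. The other counts were the same with the block.

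The zonal difference moved with the gene left out. For T0901317 it was -0.67 in W/W without Sds, -0.61 in W/F without Hal, and 0.22 and -0.22 in F/F without Glul or Oat. For the diet it was -0.062 and -0.70 in W/F without Hal or Sds and 0.48 in F/F without Sds. For W/F minus W/W it was 0.41 and -0.09 on vehicle without Hal or Sds and 0.39 on T0901317 without Sds. For F/F minus W/W on vehicle it was 0.34, -0.086, -0.13 and 0.29 without Hal, Sds, Glul or Oat.

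Over all genes, rescaling changed the number called from 5841 to 2898 for T0901317 in F/F, from 7764 to 4796 in F/F against W/W on chow, from 3552 to 1826 and 10409 to 6698 in F/F against W/F on vehicle and T0901317, and from 5065 to 3006 and 7654 to 4555 for the F/F minus W/W T0901317 and diet responses. The T0901317 count in F/F was 3244 without T0901317 replicate 3. The W/W diet count of 2141 was 580 with only those groups, 1266 without chow replicate 2 and 1091 without vehicle replicate 1. W/F against W/W on chow gave 81, or 132 with weights, 3 with only those groups and 53 without W/W replicate 4, and on T0901317 1644, or 2920 with weights.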
